A study of Coturnix japonica with 42 samples.

Results

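The onset of the photoperiodic response was examined in the mediobasal hypothalamus of Japanese quail as the difference between 4 arrays of the first long day and 4 arrays of the preceding short day, out of 42 arrays in the series. The long-day side held the times labelled 38 and 40 h and the short-day side those labelled 14 and 18 h, with 2 arrays at each time; the arrays were assigned by their labels, and the hours to compare were chosen with earlier results of these data known. The birds were 8-week-old males that had spent 4 weeks on 6 h of light and 18 h of dark before transfer to 20 h of light with 4 h of dark. Each array was hybridised with RNA pooled from 3 birds, 6 birds having been taken per time, so n counts pools. The labels put the sampling in the order of 1 short day and then 2 long days, and no bird was kept on short days beside the long-day birds, so lighting, calendar day and order of collection cannot be told apart.

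The labelled times were taken to count from dawn of the short day and each day of 24 h to begin at lights-on, which the labels do not state. On that reading times 38 and 40 h were hours 14 and 16 of the first long day, with the light on, and the short-day arrays at hours 14 and 18 were taken in darkness. Hour 16 of the short day was not sampled. Probes were designed on chicken sequence, so a dim probe set may come from sequence that differs in quail. A transcript that falls in this tissue may stand for fewer cells of a type or less RNA per cell, which bulk arrays cannot separate.

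In birds, light reaching the deep brain late in the day starts a reproductive response. The pars tuberalis, which lies against the mediobasal hypothalamus, makes thyrotropin, a heterodimer of the subunits encoded by CGA and TSHB. Thyrotropin acts on ependymal cells called tanycytes, where the deiodinases encoded by DIO2 and DIO3 activate and inactivate thyroid hormone. EYA3 encodes a transcriptional coactivator known from mammals to act with TEF on the TSHB promoter.

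Few transcripts separated the sides past the threshold. Of 32057 probe sets tested with limma, 7 differed at a Benjamini-Hochberg adjusted p of 0.05 (0.0218% of those tested), 6 higher on the long-day side (0.0187%) and 1 lower (0.00312%). Those higher were TSHB, EYA3, CGA, CRY1, HSP90B1 and a probe set with no gene symbol in the annotation used; the one lower was ALB. Unadjusted p-values under 0.05 were found for 1601 probe sets (4.99%). With differences of 1 on the log2 scale planted in simulated arrays of the same size, the same test found 39.5% of them, and 86.5% of differences of 2. The simulated arrays had 200 changed probe sets, and the adjusted threshold is stricter where fewer change. These shares, and those given below for other comparisons, may therefore be too high for data with 7 calls. Without short-day hour 14 replicate 1 the count of calls was 14, and without long-day hour 16 replicate 2 it was 12.

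**Figure D1:**
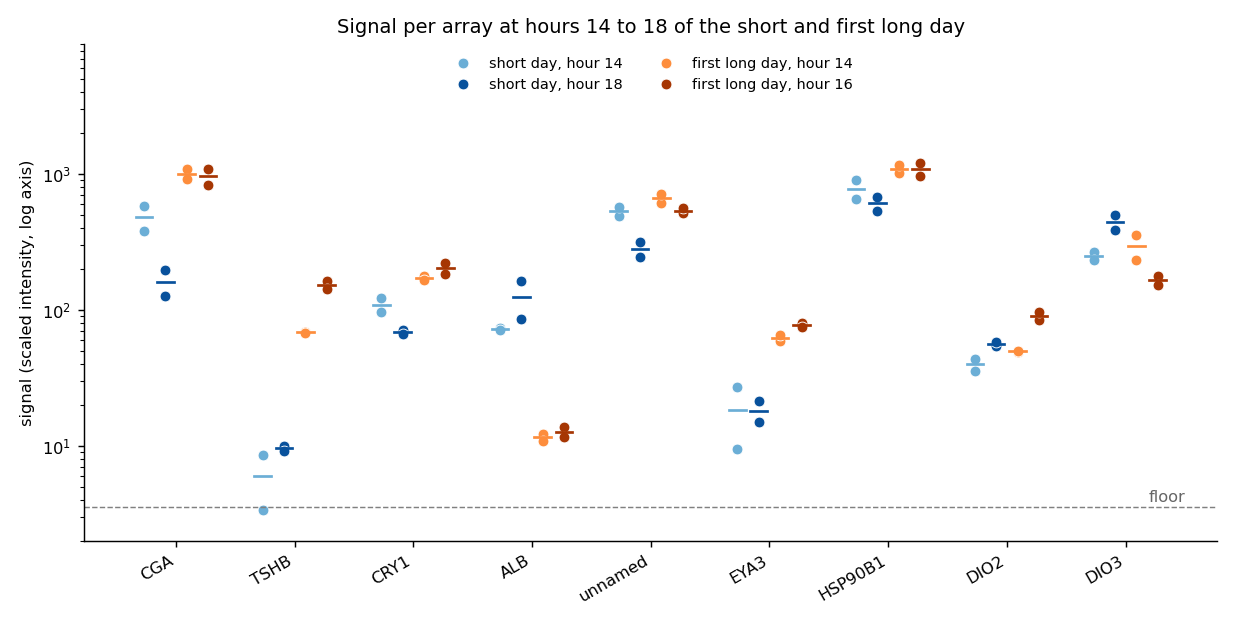
Signal of each array (scaled intensity, log axis) for the 7 probe sets that passed the threshold and for DIO2 and DIO3, with dots for single arrays, short lines for the mean of the 2 arrays of a time, and a dashed line at the floor of 3.508. All 4 long-day arrays lie above the short-day arrays for TSHB, EYA3, CGA, CRY1 and HSP90B1 and below them for ALB, whereas the sides overlap for the unnamed probe set, DIO2 and DIO3.

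TSHB, the subunit that gives thyrotropin its identity, had the widest separation of the 7. On the short day its signal was 3.369 and 8.489 at hour 14 and 9.9 and 9.175 at hour 18; on the first long day it was 68.49 and 67.87 at hour 14 and 162.4 and 143 at hour 16. The sides did not overlap, and both arrays of hour 16 were above both of hour 14. Mean signal was 110.4 ± 49.4 on the long-day side and 7.73 ± 2.97 on the short-day side (SD, n = 4 each). The fitted ratio was 14.1-fold (95% interval 8.07 to 24.8, limma adjusted p = 3.311e-07); 1 of the 4 short-day arrays was below the floor of 3.508 and was raised to it, so the ratio depends on where the floor is set.

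CGA, the subunit that thyrotropin shares with the gonadotropins, was measured by 1 probe set. Its signal was 583.3 and 379.6 at hour 14 and 125.4 and 195.3 at hour 18 of the short day, against 1077 and 907.1 at hour 14 and 1088 and 826.6 at hour 16 of the long day. No long-day array was as low as any of the 4 short-day arrays, and the short-day arrays of hour 18 were below those of hour 14. The ratio was 3.57-fold (95% interval 2.77 to 4.59, adjusted p = 1.107e-07). Against hour 14 of the short day alone the log2 difference was 1.04 and the call was lost (limma adjusted p = 0.1501).

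EYA3 was measured by 3 probe sets. The brightest, which passed, gave 27.03, 9.469, 14.91 and 21.35 on the 4 short-day arrays and 58.38, 65.17, 80.13 and 74.55 on the long-day arrays. The lowest long-day value was more than the highest short-day value, and the ratio was 4.09-fold (95% interval 2.48 to 6.74, limma adjusted p = 0.009117). The second probe set of EYA3 gave 7.39, 18.59, 14.2 and 13.23 against 32.93, 41.71, 44.6 and 46.23, again without overlap, but its log2 difference of 1.69 did not pass (adjusted p = 0.2133). The third had a log2 difference of -0.18 (adjusted p = 1.0). Averaged over the 3, EYA3 differed by 1.18 and did not pass (limma adjusted p = 0.492). The call of the brightest was also lost on the arrays as deposited (0.06222) and against short-day hour 14 alone (0.1501) or hour 18 alone (0.201). Leaving out any of 4 of the 8 arrays ended the call for EYA3: the adjusted p was 0.3622 without hour 14 replicate 2 and 0.09564 without hour 18 replicate 1 of the short day, and 0.09171 without hour 14 replicate 2 and 0.0925 without hour 16 replicate 1 of the long day.

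The partners of EYA3 did not pass. Of a list of EYA genes and their cofactors, 8 genes were measured and EYA3 alone was called, and the median log2 difference of the list was -0.05 against 0.00122 for all 12311 tested genes. EYA2 lay between 16.74 and 21.18 on the short day and 5.167 and 16.78 on the long day, and SIX3 between 137.7 and 186.4 on all 8 arrays. EYA1 was dim, at 6.56 to 11.34 on the short day and 0.7645 to 6.204 on the long day. Its sides did not overlap, as for 1.61% of all genes in the lower direction, with a log2 difference of -0.85. A second EYA1 probe set, also dim, had a difference of 0.52. TEF, a PAR bZIP factor that binds the D-box, gave 43.56, 44.8, 52.61 and 47.97 on the short day and 64.07, 45.92, 49.55 and 48.47 on the long day, which overlapped. NFIL3, a repressor at the same element, had a log2 difference of 0.43 (adjusted p = 0.9763), and HLF lay between 86.78 and 146.2 on all 8 arrays.

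Neither deiodinase had passed the threshold by hours 14 and 16. DIO2, which makes the active hormone, gave 35.63, 43.64, 54.36 and 57.49 on the short day, 48.72 and 49.8 at hour 14 of the long day and 83.81 and 95.54 at hour 16. Only the hour 16 arrays were above all 4 short-day arrays, and the log2 difference over both hours was 0.50 (95% interval 0.03 to 0.97, limma adjusted p = 0.989). DIO3, which inactivates the hormone, gave 265.1, 231.6, 383.1 and 493.1 on the short day, 356.3 and 230.4 at hour 14 and 175.7 and 152.6 at hour 16, with a log2 difference of -0.60 (95% interval -1.17 to -0.03, adjusted p = 0.992). Both arrays of hour 16 were below all 4 short-day arrays, while of those of hour 14, 356.3 was within their range and 230.4 just under its lower end.

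Elsewhere in the thyroid hormone and photoperiod list, 14 of 17 genes were measured and 3 were called, CGA, TSHB and EYA3, all higher (0.0487% of all tested genes were called in either direction). TSHR, the thyrotropin receptor, overlapped between 18.34 and 43.09 on the short day and 23.5 and 54.8 on the long day. SLCO1C1, a thyroid hormone transporter, lay between 287.7 and 407.6 on all 8 arrays. TTR, a carrier of thyroid hormone in the choroid plexus and blood, had 29.37, 48.17, 96.47 and 50.08 against 17.64, 19.22, 19.39 and 33.97, a log2 difference of -1.23 that did not pass (adjusted p = 0.876). VIP was bright and overlapping, at 857.7 to 1297 on the short day and 936.7 to 1124 on the long day. GNRH1, the releasing hormone of the reproductive axis, gave 1.062, 11.77, 12.31 and 12.9 on the short day and 0.7945, 1.341, 1.667 and 12.38 on the long day, where 1 of 4 and 3 of 4 arrays were below the floor.

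Because TSHB and CGA are also made by the pars distalis of the pituitary, other markers of that gland were examined. Of 12 measured anterior pituitary genes, TSHB and CGA were called and no other. The 10 others had a median log2 difference of 0.12, with 6 of 10 above 0 and 1 at an unadjusted p under 0.05, and their summed signal was 3592 to 3942 on the short day and 3451 to 4192 on the long day. That 1 was PITX1, a homeobox factor of the pituitary, with 4.065, 17.59, 8.449 and 19.47 on the short day and 22.96, 23.4, 16.1 and 22.45 on the long day, which overlapped (log2 difference 1.01, adjusted p = 0.9718). PRL lay between 2.184 and 20 on the short day and 13.02 and 18.96 on the long day, GH between 2.335 and 21.92 against 0.9267 and 16.83, and POU1F1, the factor of the lineage that makes both, between 2.777 and 12.67 against 5.245 and 14.83. PRL, GH and POU1F1 had signals under 22 on all 8 arrays and overlapped between the sides; these 3 were picked as hormone and lineage markers after their values were seen. Taken by hour, the median of all 12 genes, TSHB and CGA included, was -0.01 at hour 14 against short-day hour 14 alone. At hour 16 it was 0.53 against the mean of short-day hours 14 and 18, so the 2 medians are not a like comparison. Over all tested genes they were 0 and 0.01. POMC, also of this list, gave 108.5 and 137.7 at hour 14 of the long day and 228.9 and 329.1 at hour 16. Most of the summed signal came from list members other than PITX1, PRL, GH, POU1F1 and POMC, so the sum says little about these. What part tissue of the pars distalis had in the TSHB and CGA differences was not tested. Tanycyte and ependymal markers gave no call among 11 measured, with 1 at an unadjusted p under 0.05, DIO2 itself, a median log2 difference of 0.08 and a summed signal of 4519 to 5082 on the short day and 4700 to 5047 on the long day. Of the lists for astrocytes, oligodendrocytes, neurons, microglia, endothelium, erythrocytes, choroid plexus and fibroblasts, 8 lists with 80 measured genes, none had a member past the threshold; 4 of the 80 genes (5%) had an unadjusted p under 0.05, against 5.44% of all tested genes.

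CRY1, a cryptochrome that represses the CLOCK and BMAL1 activators, was the single clock gene called among 18 measured. Its signal was 121.7 and 95.79 at hour 14 and 71 and 65.72 at hour 18 of the short day, against 176.7 and 165.1 at hour 14 and 222.2 and 182.3 at hour 16 of the long day. The sides did not overlap, and the ratio was 2.16-fold (95% interval 1.81 to 2.58, limma adjusted p = 1.845e-06). Against short-day hour 14 alone the adjusted p was 0.1386. A second CRY1 probe set had a log2 difference of 0.57 (adjusted p = 0.9718), and the third was near the floor with a difference of -0.03; averaged over the 3, CRY1 did not pass (adjusted p = 0.9821).

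Other clock genes did not pass. ARNTL, which encodes BMAL1, gave 81.93, 64.78, 34.43 and 44.26 against 75.7, 106.5, 71.23 and 94.76, and NPAS2, its partner, 33.4, 16.21, 15.39 and 22.82 against 29.19, 52.47, 36.38 and 34.94. The sides overlapped for both, with log2 differences of 0.69 (adjusted p = 0.886) and 0.84 (adjusted p = 0.9718). PER2, a period gene, lay between 5.384 and 25.25 on the short day and 22.85 and 27.56 on the long day. Across the list, 9 of 18 differences were above 0 and the median was 0.04. On the arrays as deposited the list's median was -0.07, where the median of all probe sets was -0.0966 (-0.00257 after scaling). An unadjusted p under 0.05 was found for 5 of the 18, CRY1 among them, in the higher direction and 0 in the lower (2.81% and 2.63% of all genes).

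HSP90B1, the endoplasmic reticulum paralog of HSP90, passed with the smallest margin of the 7. It gave 892.9, 653.7, 675.8 and 535.2 on the short day and 1020, 1157, 1204 and 954.5 on the long day, which did not overlap. The ratio was 1.59-fold (95% interval 1.34 to 1.89, limma adjusted p = 0.01695), and the call was lost with median centring (adjusted p = 0.3601), on the arrays as deposited (0.8809), without a variance trend (0.455) and against short-day hour 14 alone (0.9824). It was also lost on leaving out any of 4 arrays: adjusted p was 0.4594 without hour 14 replicate 2 and 0.2849 without hour 18 replicate 2 of the short day, and 0.1646 without hour 14 replicate 2 and 0.3389 without hour 16 replicate 1 of the long day. A second probe set was dim, with a difference of -0.08 (adjusted p = 1.0). The unnamed probe set gave 491.1, 565.4, 242.8 and 316.9 on the short day and 609.3, 713, 510.6 and 560.2 on the long day, a 1.55-fold ratio (95% interval 1.34 to 1.80, limma adjusted p = 0.004403). Its sides overlapped, as the long-day arrays of hour 16 lay within the range of short-day hour 14, and against that hour alone the log2 difference was 0.17 (adjusted p = 1.0). Its adjusted p was 0.0999 without short-day hour 18 replicate 1 and 0.09171 without long-day hour 14 replicate 2.

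The other chaperones were mostly above the short day without passing. Of 25 endoplasmic reticulum chaperones and stress genes measured, HSP90B1 alone was called; 10 had an unadjusted p under 0.05 in the higher direction and 0 in the lower, where the shares over all tested genes were 2.81% and 2.63%. The list's median was 0.30 on the log2 scale, 19 of 25 differences were above 0, and for 5 the sides did not overlap with the long day higher (1.92% of all genes). HSPA5, the major chaperone of that compartment, gave 1286, 1011, 1074 and 1038 against 1626, 1551, 2124 and 1515, a 1.54-fold ratio with an adjusted p of 0.07621. PDIA6, a disulfide isomerase, gave 398.9, 313.2, 333.4 and 376.1 against 421.6, 510.5, 525.9 and 443.4, and CANX, the lectin calnexin, 765.1, 775.4, 736 and 724.7 against 883.6, 984.5, 1017 and 888.6. All 3 were separated between the sides and none passed.

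Of 25 cytosolic heat shock genes measured, 0 were called and the median difference was 0.22. An unadjusted p under 0.05 was found for 8 in the higher direction and 0 in the lower (2.81% and 2.63% of all genes). DNAJA1, a co-chaperone of HSP70, gave 874.9, 742.7, 808.9 and 990.6 against 1223, 1237, 1230 and 1104 (log2 difference 0.50, limma adjusted p = 0.07548). HSP90AA1, the inducible cytosolic HSP90, gave 3061, 2935, 2889 and 2892 against 4214, 3719, 4414 and 3744 (0.45, adjusted p = 0.1536). HSPA8 gave 3720, 3479, 3973 and 4346 against 5057, 4828, 5806 and 4881 (0.41, adjusted p = 0.6175), and BAG3, a partner of HSP70 in protein clearance, had a difference of 0.46 (adjusted p = 0.4445). These 4 were among 6 of the 25 separated between the sides with the long day higher (1.92% of all genes).

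One array outside the 8 bore on these calls through the shared estimate of spread. The second array of time 62 h had a mean correlation with the other 41 arrays of 0.8115, the next lowest array being at 0.876. Without it 10 probe sets passed, 9 higher and 1 lower, including all 7 named above, and HSP90AA1 (adjusted p = 0.01678), DNAJA1 (0.01815) and HSPA5 (0.02353) were the 3 that joined. For the 8 arrays themselves no difference between sides was detected in brightness, share at the floor, 3' to 5' ratios or correlation with the arrays of other times (6 measures, two-sided exact permutation p from 0.1429 to 0.8286, where 0.02857 is the smallest possible).

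**Figure D2:**
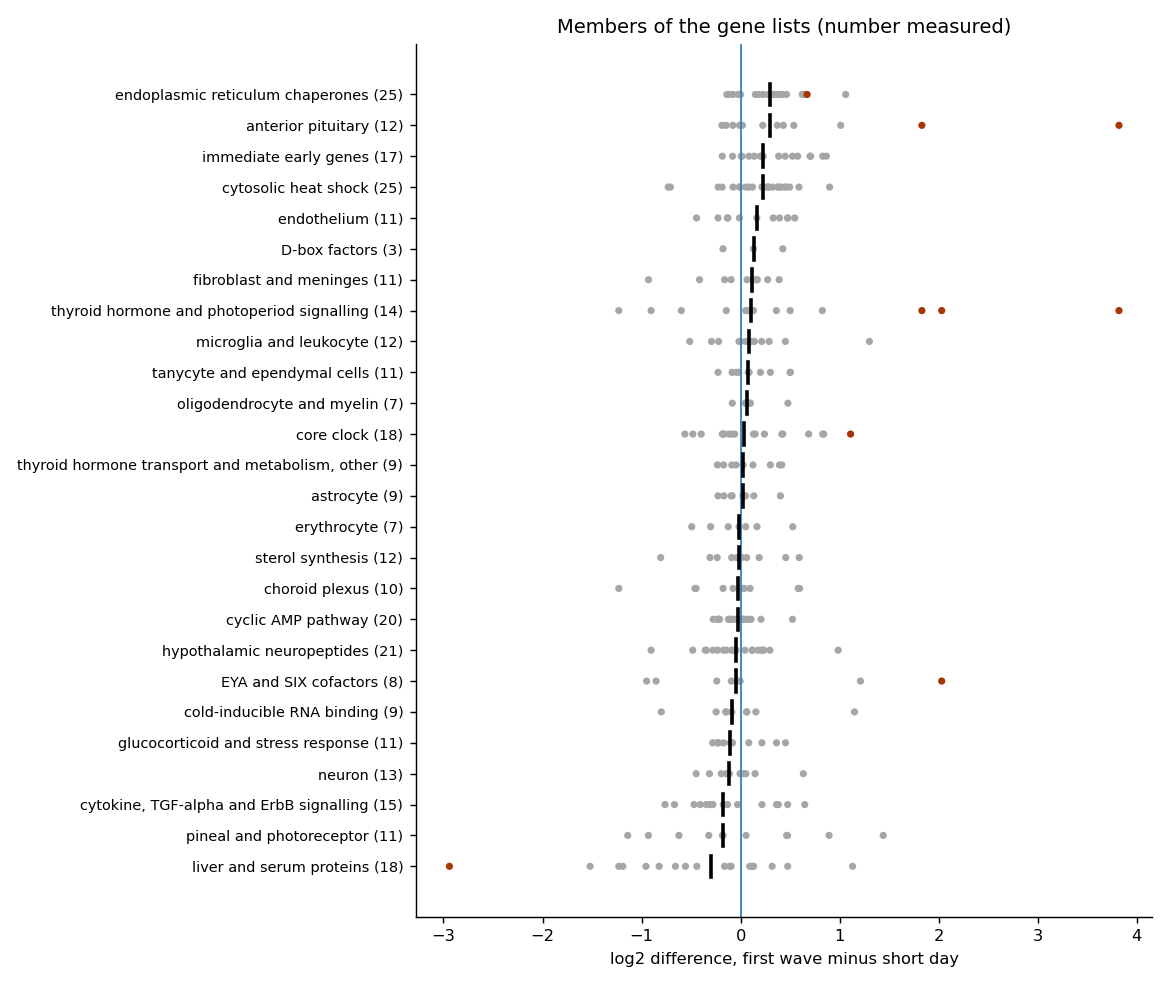
Log2 difference between the first long day (hours 14 and 16) and the short day (hours 14 and 18) for the measured members of each gene list, with called members in brown, the list's median as a black bar and the median of all tested genes as a blue line. The endoplasmic reticulum list has its median at 0.30, the cytosolic heat shock list at 0.22, and the liver and serum list at -0.30.

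Immediate early genes, which neurons and other cells switch on within minutes of a stimulus, gave 0 calls among 17 measured, with a median difference of 0.23. An unadjusted p under 0.05 was found for 5 in the higher direction and 0 in the lower (2.81% and 2.63% of all genes). EGR1, a zinc-finger factor, gave 642.7, 640.3, 511.5 and 599.8 on the short day, 737.5 and 751.9 at hour 14 of the long day and 1199 and 938.8 at hour 16 (log2 difference 0.58, limma adjusted p = 0.2084). CREM, which encodes cyclic AMP-responsive activators and repressors, gave 146.7, 126.2, 140.9 and 130.8 against 166, 154.7, 235.5 and 241.2 (0.52, adjusted p = 0.4548). Both were separated between the sides, with the hour 16 arrays highest. They were among 3 of the 17 separated with the long day higher (1.92% of all genes). The wider cyclic AMP list of 20 measured genes had a median of -0.03.

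ALB, serum albumin, was the single probe set called lower. It gave 73.27, 71.4, 161.8 and 85.11 on the short day and 12.22, 10.8, 13.77 and 11.59 on the long day, a 7.65-fold difference (95% interval 4.03 to 14.5, limma adjusted p = 0.001503) with no overlap. Against short-day hour 14 alone the adjusted p was 0.1501. Of 18 measured liver and serum protein genes, 12 had differences below 0 and 4 of these an unadjusted p under 0.05 (2.63% of all genes), with 1 member, APOH, at such a p in the higher direction (2.81%), at a difference of 0.32; for 2 of the 18 the sides did not overlap with the long day lower (1.61% of all genes). The median of the list was -0.30, and -0.04 with the floor at the median signal. AMBP, a plasma protein precursor, gave 9.194, 13.28, 16.21 and 14.07 against 6.365, 0.9302, 5.315 and 2.849 without passing (adjusted p = 0.9574). The bright members APOA1 and TF, lay at 3478 to 4975 and 3408 to 4221 on the short day and at 4382 to 4959 and 3968 to 4582 on the long day, which overlapped. What part blood or other tissue in the dissection had in the ALB difference was not tested.

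Among other genes with the smallest p in the lower direction, none passed. CCN2, a matricellular growth factor, gave 373.8, 372.3, 314.6 and 335.2 against 233.1, 152.1, 213.6 and 212.3 (log2 difference -0.80, limma adjusted p = 0.4093). CCDC88A, the actin-binding protein girdin, gave 57.42, 83.47, 80.8 and 75.02 against 43.11, 39.45, 44.73 and 41.06 (-0.80, adjusted p = 0.403). KLHL29 had a difference of -0.79 (adjusted p = 0.3298), and MCTS1, with 3 of 4 long-day arrays below the floor, one of -2.20 (adjusted p = 0.5426). The first 3 were separated between the sides, as were 1.61% of all genes in the lower direction.

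**Figure D3:**
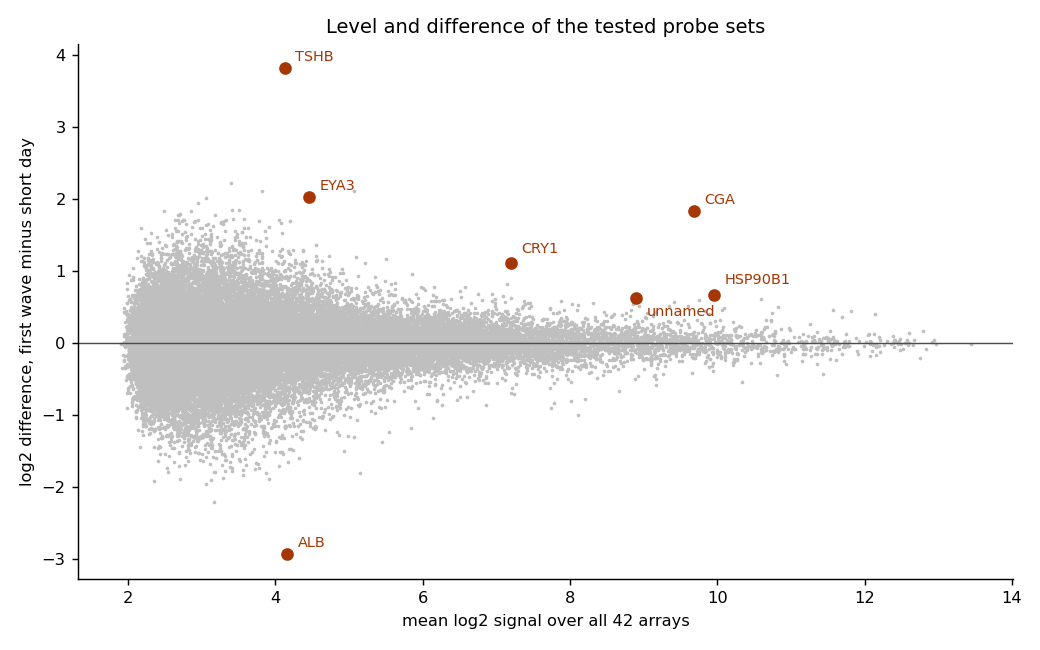
Log2 difference between the sides against mean log2 signal over all 42 arrays for the 32057 tested probe sets (grey), with the 7 that passed in brown. TSHB, EYA3 and ALB have a low mean signal with differences of 3.82, 2.03 and -2.94, while HSP90B1 and the unnamed probe set a high one with differences of 0.67 and 0.64.

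The hours were then taken singly. At hour 14, against hour 14 of the short day, 1 probe set passed (0.00312% of those tested), TSHB, with a log2 difference of 3.64 (95% interval 2.50 to 4.79, limma adjusted p = 0.005633). Its adjusted p was 0.2109 without short-day hour 14 replicate 1, the array below the floor, 0.08799 without long-day replicate 1 and 0.05004 without long-day replicate 2; without these the count was 4, 3 and 5. At hour 16, against the mean of short-day hours 14 and 18, 5 passed (0.0156%): TSHB, CGA, CRY1 and EGR1 higher (0.0125%) and FAM219A lower (0.00312%). TSHB differed there by 4.40, CGA by 1.80 and CRY1 by 1.23. EGR1 differed by 0.83 (adjusted p = 0.04943), and 5 of the 6 arrays in that comparison each ended its call when left out, the adjusted p then running from 0.06628 to 0.5932. FAM219A gave 81.15, 127.1, 90.53 and 90.14 at hours 14 and 18 of the short day. On the long day it gave 68.21 and 77.07 at hour 14 and 14.86 and 7.187 at hour 16. Over all 12 short-day arrays it ran from 2.3 to 127.1, with means of 18.1 at hour 2 and 5.437 at hour 10. Neither hour 16 array was below all 12, so the FAM219A difference depends on the short-day hours compared. Its call was likewise lost without any of 5 arrays (adjusted p from 0.05879 to 0.4612). The count of 5 became 13 and 17 without replicates 1 and 2 of long-day hour 16, and 3 without hour 14 replicate 2 or hour 18 replicate 1 of the short day. The tool found 15% of simulated differences of 1 at hour 14 alone and 32% at hour 16 alone. The short-day sides also differed, that of hour 16 including hour 18, so the counts and differences of the 2 hours are not comparable. CGA and CRY1 had their lowest short-day means at hour 18, 160.4 and 68.36. At hour 14, against short-day hour 14 alone, they differed by 1.07 and 0.66 without passing. CGA signal was 1077 and 907.1 at hour 14 and 1088 and 826.6 at hour 16 of the long day.

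Between hours 14 and 16 of the first long day 1 probe set passed (0.00312%), POMC, the precursor of ACTH, melanocyte-stimulating hormone and beta-endorphin, made by arcuate neurons and the pituitary. It gave 108.5 and 137.7 at hour 14 and 228.9 and 329.1 at hour 16 (log2 difference 1.17, limma adjusted p = 0.02695). POMC gave 142.3 to 177.2 on the 4 short-day arrays, and 138.8 to 222.4 on all 12 of that day. Both hour 16 arrays lay above these ranges and both hour 14 arrays below them. Its mean was 167 at 42 h. The adjusted p was 0.4774 without hour 14 replicate 1, 0.5053 without hour 16 replicate 2 and 0.8967 on the arrays as deposited. The count of 1 became 4 and 8 without replicates 1 and 2 of hour 14, and 2 without replicate 1 of hour 16. TSHB differed by 1.16 on the log2 scale between these hours and did not pass (adjusted p = 1.0).

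**Figure D4:**
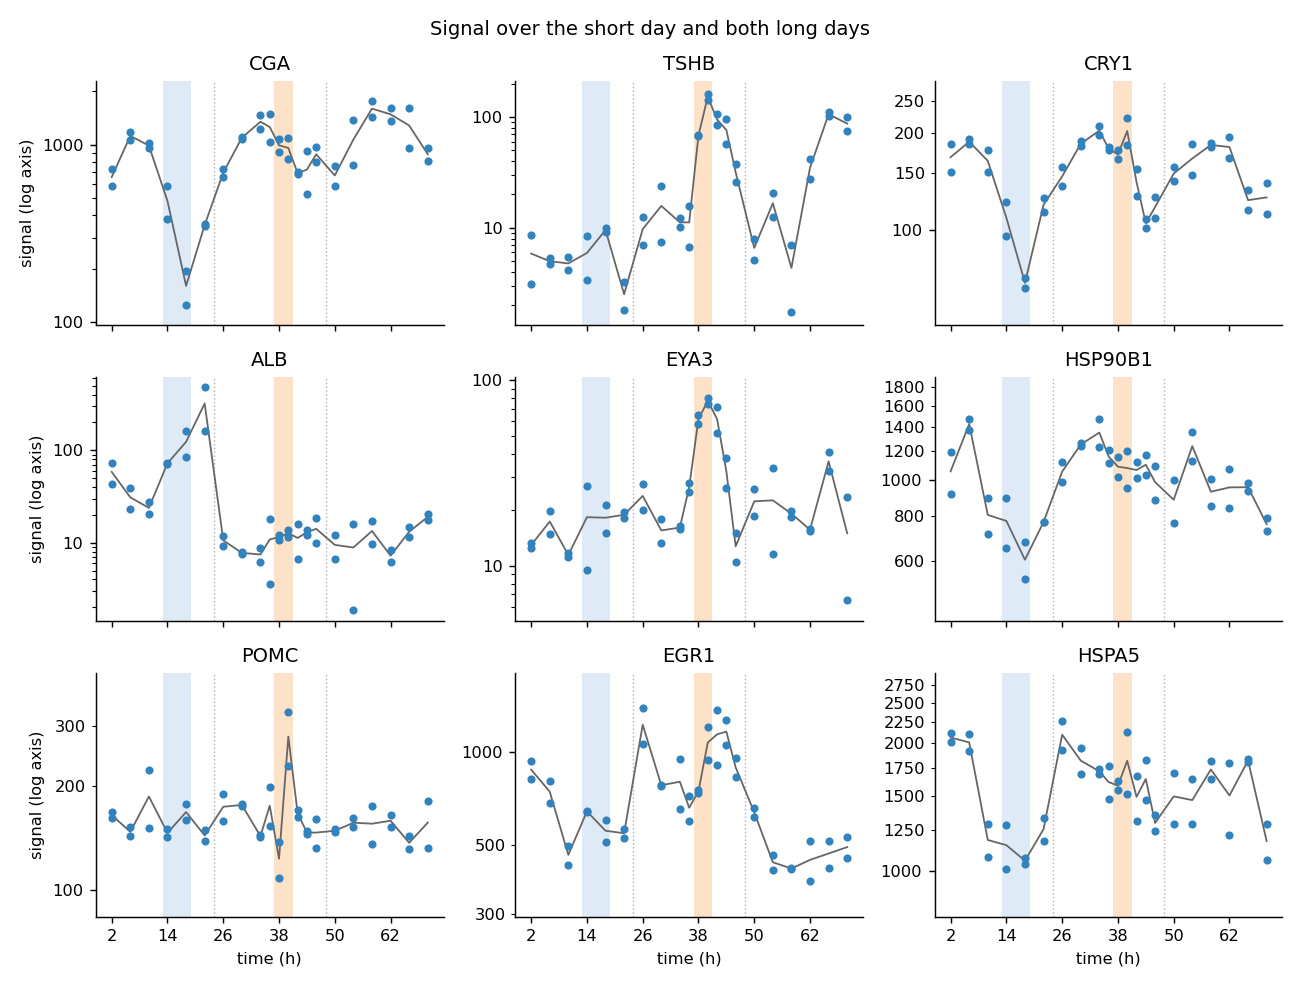
Signal of both arrays at each of the 21 times (dots, log axis) with their mean (line) for 6 called genes and for POMC, EGR1 and HSPA5; blue bands mark hours 14 to 18 of the short day, orange bands times 38 and 40 h, and dotted lines the ends of days. TSHB and EYA3 have their highest means at 40 h and ALB its highest at 22 h, whereas CGA, CRY1 and HSP90B1 fall to their lowest means at 18 h.

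The short-day hours chosen for comparison matter for part of these genes. CGA, CRY1 and HSP90B1 each had their lowest short-day mean at hour 18, at 160.4, 68.36 and 605.5, and their highest at hour 6, at 1120, 187.3 and 1425. In the long-day window 0 of 4 arrays of CGA, 1 of 4 of CRY1 and 0 of 4 of HSP90B1 were above all 12 short-day arrays. Among chaperones that did not pass, the counts were 1 of 4 for HSPA5, 0 of 4 for DNAJA1 and 2 of 4 for HSP90AA1. Their highest short-day means were 2066 and 1402 at hour 2 for HSPA5 and DNAJA1, and 4043 at hour 6 for HSP90AA1. All 4 long-day arrays of TSHB and of EYA3 were above all 12 short-day arrays, whose highest values were 9.9 and 27.03, and all 4 of ALB were below all 12, whose lowest was 20.32. Across the array, 0.0593% of probe sets had all 4 long-day arrays above all 12 short-day arrays and 0.0686% had them below. With short-day hour 14 alone on the short-day side, a comparison with fewer arrays, TSHB alone of the 7 passed. There the log2 difference was 2.11 for EYA3 and -2.59 for ALB, near the values over both hours, and 1.04 for CGA, 0.78 for CRY1, 0.50 for HSP90B1 and 0.17 for the unnamed probe set. By contrast, 13 probe sets passed with hours 10 to 22 on that side, including all 7.

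Whether the difference at hours 14 and 16 exceeded the difference already present earlier on the same long day was tested directly. Against the difference at hour 10 (times 34 and 10 h, both 2 arrays), 0 probe sets passed with limma (0%), 1332 having an unadjusted p under 0.05 (4.16%). TSHB differed by 1.24 at hour 10 (95% interval 0.09 to 2.38) and by 3.82 at hours 14 and 16; HSP90B1 differed by 0.75 at hour 10 (95% interval 0.40 to 1.10) and by 0.67 later. The count of 0 became 7 and 1 without replicates 1 and 2 of time 10 h, and 2 without replicate 2 of time 34 h. That test found 7.5% of simulated differences of 1. The endoplasmic reticulum and cytosolic heat shock lists had median differences of 0.12 and 0.18 at hour 10, against 0.00811 for all tested genes. Their medians were 0.11 and 0.17 at hour 14 against short-day hour 14 alone, and 0.30 and 0.22 over hours 14 and 16.

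Against the morning difference (hours 2 and 6, 4 arrays a side), 2 passed (0.00624%), CGA and CRY1. CGA differed by 0.03 in the morning (95% interval -0.33 to 0.39) and by 1.81 more at hours 14 and 16 (limma adjusted p = 0.0007349). CRY1 differed by -0.11 in the morning and by 1.22 more later (adjusted p = 0.0009027). The morning hours were the same on both days, whereas the later short-day side included hour 18, where both genes had their lowest short-day means. With hour 14 on both days CGA and CRY1 differed by 1.07 and 0.66, and whether these exceeded the morning differences was not tested. The count of 2 became 4 without replicate 2 of time 2 h or replicate 1 of time 18, 26 or 38 h. Without a variance trend neither passed (adjusted p = 0.1471 and 0.1277). TSHB differed by 1.09 in the morning and EYA3 by 0.35, and their further differences of 2.73 and 1.68 did not pass (adjusted p = 0.2038 and 0.9891). ALB was already lower in the morning, by -2.19 (95% interval -3.11 to -1.26), with 7.601 to 11.93 on the 4 long-day arrays and 23.18 to 73.54 on the 4 short-day arrays of those hours. On the reading of the labels used here, hours 2 and 6 came before the light of the long day went past 6 h. What part calendar day or order of collection had in the ALB difference was not tested.

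**Figure D5:**
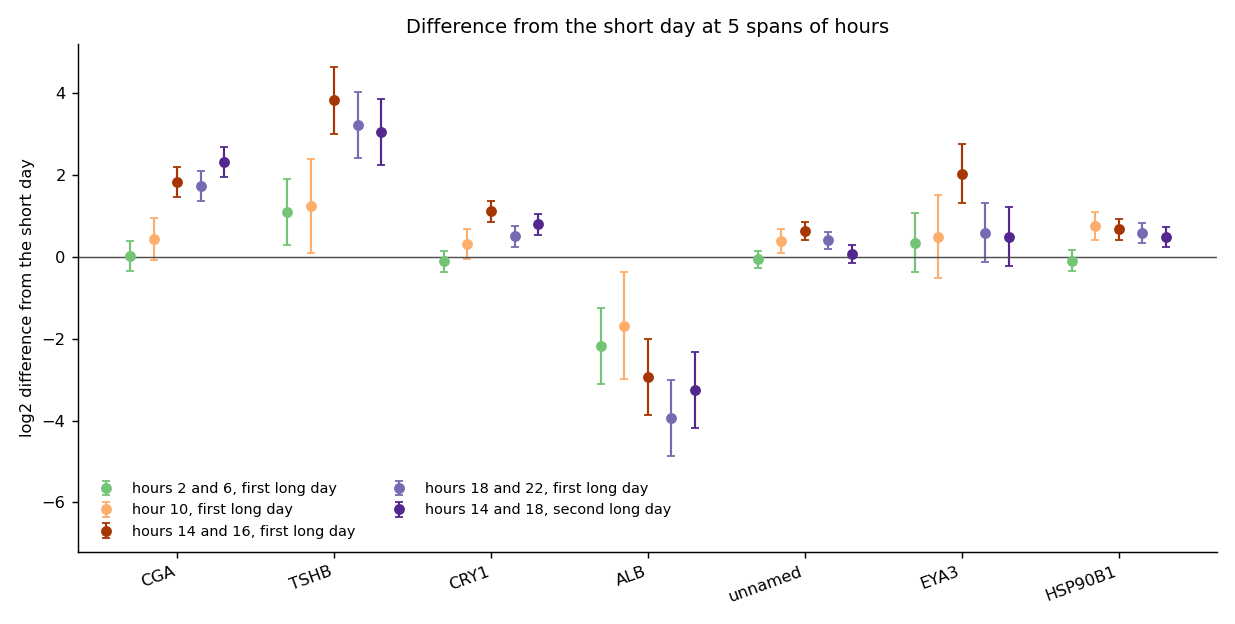
Log2 difference from the short day for the 7 called probe sets at 5 spans of hours, with 95% intervals from the fit; the spans of hours 14 and 16, hours 18 and 22 and the second long day share short-day arrays. EYA3 has an interval clear of 0 at hours 14 and 16 and not at the 4 other spans, and ALB has intervals below 0 at all 5. The span of hours 18 and 22 averages unlike values of EYA3. Its signal was 71.62 and 51.93 at hour 18 of the first long day, above all 12 short-day arrays, and 14.93 and 10.5 at hour 22.

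The same window was last set against the second long day, at times 62 and 66 h, which were hours 14 and 18 and so not fully matched to hours 14 and 16. There 13 probe sets passed (0.0406%), 4 higher on the second day (0.0125%) and 9 lower (0.0281%). DIO3 was lower by -3.99 on the log2 scale (95% interval -4.57 to -3.42, limma adjusted p = 9.922e-12), and EGR1 by -0.97 (adjusted p = 0.0001463). DIO3 gave 9.996, 9.204, 19.94 and 18.66 on the second day, all below the lowest first-day value of 152.6 in the window. TSHB and EYA3 did not pass, at -0.76 (adjusted p = 0.6023) and -1.54 (adjusted p = 0.107). Without time 62 h replicate 2 the count was 7, of which 5 were among the 13, without replicate 1 of that time it was 557, and without replicate 1 of time 38 h it was 7.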

How the data were processed

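The authors deposited 1 signal intensity per probe set and array on a linear scale, made with GCOS 1.2 per the submitters' processing notes; the scaling target is not given in the sources used here. There were 38535 probe sets and 42 arrays, whose 2% trimmed means were 25.53 to 41.38 (31.03 to 38.82 on the 8 arrays compared). Each array was multiplied by 1 factor, between 0.795 and 1.288, to a common trimmed mean of 32.9; signal means these scaled values. Control probe sets, 96 in number, were dropped, values under 3.508 (each array's 25th percentile, median taken over arrays) were raised to that floor, and log2 was taken. Probe sets above the median of their array on at least 2 arrays were kept, 32057 in all; 23434 had 1 symbol in the platform annotation, 145 several and 8478 none. Those with 1 symbol stood for 12311 genes, the brightest probe set representing each.

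One mean per time was fitted over the 42 arrays by limma 3.58.1 under R 4.3.3 (variance trend, 21 residual and 14.79 prior degrees of freedom). Two-sided p-values were adjusted over all 32057 probe sets by Benjamini and Hochberg, the threshold was 0.05, and intervals are 95%. The contrasts were the first wave, each of its hours, their difference, the first wave less the hour 10 or morning difference, and the second long day. The test was checked on simulated arrays with 200 probe sets changed, so the shares found there may be too high where fewer change. The number of arrays limits the precision. Intensities have no count behind them, so no depth is given, and p-values measure the spread between pools of birds.

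The hours, the 26 gene lists and the comparisons were chosen with earlier results of these data known. Named genes were all probe sets past the threshold, the 12 smallest p in each direction with the same sign at both hours, the measured members of the thyroid, EYA and D-box lists, up to 4 members of each other list by p, and the 8 smallest p in the other contrasts; of these the text gives the ones described. For genes called in the first-wave comparison every probe set is given. CANX, PER2, PRL, GH, POU1F1, APOA1, APOH, TF and SIX3 values were chosen after they were seen. Replicate numbers did not pair the arrays: deviations from the time means correlated between -0.01529 and 0.008388 across the 6 pairs of times. Alternatives changed the scaling, floor, filter, variance model, arrays in the fit and short-day hours, and left out each array in turn. Promoter sequences were not analysed here.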

Additional observations from a re-analysis of the deposited data

Results flagged for a closer look

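The results below stood out in the 8 arrays and their contrasts. On the short-day side of TSHB, hour 14 replicate 1, at 3.369, was far below the other 3 arrays, its gap taking 0.852 of the range of the 4 log2 values after flooring, above the 95% critical value of Dixon's test. On the long-day side the 3' to 5' ratio of actin had 1 array far from the other 3, at 0.915 of the range of 6.871 to 8.295; all 42 arrays spanned 5.891 to 9.037. Of 26 sides examined in this way, about 1 in 20 would be marked with no true cause. CRY1 and CGA had differences at hours 14 and 16 that exceeded those of the morning, by 1.218 and 1.806 on the log2 scale in a test of the difference itself.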

How the results depend on the processing

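TSHB passed in the first-wave comparison under all 24 alternatives run, with a log2 difference of 3.13 to 4.23; ALB passed under 23 of 24, CGA under 22 of 24, CRY1 under 22 of 25, the unnamed probe set under 17 of 24, EYA3 under 16 of 25 and HSP90B1 under 14 of 25. None of these 7 changed sign. The cause of the changes below was not tested, apart from the fewer arrays in the fits that used only the arrays of a contrast. The first-wave count of 7 became 4 on the arrays as deposited (3 higher, 1 lower, against 6 and 1), 15 with the floor at the median signal, 2 with only the arrays of the contrast, 1 with short-day hour 14 alone and 13 with short-day hours 10 to 22. The scaling alternatives moved the median difference of all probe sets by -0.094 to 0.0181. The count at hour 14 alone was 0 with no floor, 10 with the higher floor, 3 with no filter, 2 with no variance trend and 0 with only the arrays of the contrast. At hour 16 alone it was 8 with quantile normalization, 17 with the higher floor, 10 with no filter, 9 with the stricter filter and 0 with only the arrays of the contrast. For hour 16 against hour 14 it was 0 with median centring, as deposited, with no trend, with a brightness covariate and with only the arrays of the contrast, 10 with the higher floor and 2 with no filter. Less the hour 10 difference it was 3 with the higher floor and 3 with no filter; less the morning difference it was 4 with the higher floor and 0 with no trend. For the second long day it was 26 with median centring (2 higher), 113 with the higher floor (90 higher), 24 with no filter (14 higher), 3 with no trend and 1 with only the arrays of the contrast, and as deposited 15, of which 0 were higher.

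Leaving out 1 array at a time gave 5 to 14 calls in the first-wave comparison (14 without short-day hour 14 replicate 1, 12 without long-day hour 16 replicate 2), 1 to 5 at hour 14, 3 to 17 at hour 16, 1 to 8 between hours 14 and 16, 0 to 7 less the hour 10 difference, 2 to 4 less the morning difference and 7 to 557 for the second long day. With the replicate block the first-wave count was 7, the same 7 probe sets; the numbers did not pair the arrays. The time 62 h array was left out as an alternative chosen after seeing the data.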
